A study of Mus musculus with 4 samples.

Results

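Leptomeningeal and perivascular fibroblasts are the collagen-making cells of the pia and arachnoid and of the sheath around larger brain vessels. They were taken from single-nucleus RNA sequencing of mouse hippocampus by a rule on detected genes. A nucleus had to hold at least 500 UMIs (unique molecular identifiers, each standing for 1 counted RNA molecule) with at most 5% of them mitochondrial. It also had to show at least 3 of the 9 genes Slc6a13, Dcn, Col1a1, Col1a2, Col3a1, Lum, Ranbp3l, Bmp6 and Slc6a20a. At most 1 of the 6 genes Mog, Mag, Aqp4, Inpp5d, Flt1 and Atp13a5, which mark other cell types, could be present, and Syt1 and Rbfox3 together could not exceed 3 UMIs. The rule found 1582 fibroblast nuclei among 32048 barcodes, 32044 of which passed the limits on UMIs and mitochondrial share.

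The study set wild-type mice (WT, 1 library) beside PS19 mice (2 libraries) and TG_PS19 mice (1 library) to ask what raised SORLA, an endosomal sorting receptor, does in the brain of aged mice with tau pathology. PS19 mice carry a MAPT transgene for 1N4R tau with the P301S mutation under the Prnp promoter, on a B6;C3 background. TG_PS19 mice carry in addition a SORLA transgene in the Rosa26 locus behind a CMV/β-actin promoter, and all groups came from littermates of that cross. Each library was made from pooled frozen hippocampus with 10x Genomics 3′ v3.1 chemistry. The sources used here do not give how many animals went into a pool, their age in months or their sex. Whether distinct pools gave the PS19 libraries is not given either. P-values therefore measure only the spread between these libraries, which may be technical. Between genotypes that spread came from the PS19 pair and was pooled over genes, so it is not each gene's own. The fibroblasts numbered 731 in WT, 284 and 253 in PS19 replicates 1 and 2, and 314 in TG_PS19, with 752935 to 1596937 UMIs summed per library and a median of 1935 to 2999 UMIs per nucleus.

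The libraries also differed in ways the labels do not give. In WT 516 fibroblast nuclei held a UMI of a Y-linked gene without Xist, the RNA that silences one X chromosome in females, and 1 held Xist without a Y-linked gene. In PS19 the Y-linked nuclei numbered 221 and 205 and none held Xist alone. In TG_PS19, however, 200 nuclei held Xist alone, 60 held Y-linked UMIs alone and 11 held both, so this pool mixed animals of both sexes. Between 5 and 32 barcodes were shared by each pair of libraries, and none of these was a fibroblast in both.

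Meningeal fibroblasts lay down the basement membrane and collagen matrix that cover the brain surface and line the perivascular spaces. They also move amino acids, neurotransmitters and organic ions through solute carriers, and they are a main source of retinoic acid and bone morphogenetic proteins for the underlying cortex and hippocampus. Cells of the arachnoid barrier are joined by tight junctions, whereas pial and perivascular fibroblasts lie loosely against the basement membrane of the glial endfeet.

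The label was checked against its 6 markers, which the rule itself used, so their levels are a description. Slc6a13, a GABA and taurine transporter, reached 765 CPM (the gene's UMIs summed over the class and scaled to the same total in every library) in WT. PS19 stood at 862 and 645 CPM and TG_PS19 at 720 CPM, beside 4.81 to 9.22 CPM in all other kept nuclei. Bmp6, a bone morphogenetic protein, was at 1764, 2156, 2303 and 2198 CPM in the same order of libraries. Ranbp3l, a nuclear export factor, stayed between 2200 and 2347 CPM. Each of these genes was present in most nuclei, Bmp6 in 76.5% to 85.8% and Ranbp3l in 83.8% to 89.3%. Dcn, the collagen-binding proteoglycan decorin, was at 981, 1042, 961 and 749 CPM. Col1a1, a chain of fibrillar collagen I, was much sparser at 124 to 162 CPM and was detected in 27.1% to 31.3% of fibroblast nuclei, against 1.06% to 1.70% of other nuclei. Col3a1, the chain of fibrillar collagen III, was at 83.3 to 101 CPM and was detected in 16.4% to 21.1%. The markers therefore fit the label in every library, with the transporter and Bmp6 side of the list found in more nuclei than the fibrillar collagens.

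**Figure D1:**
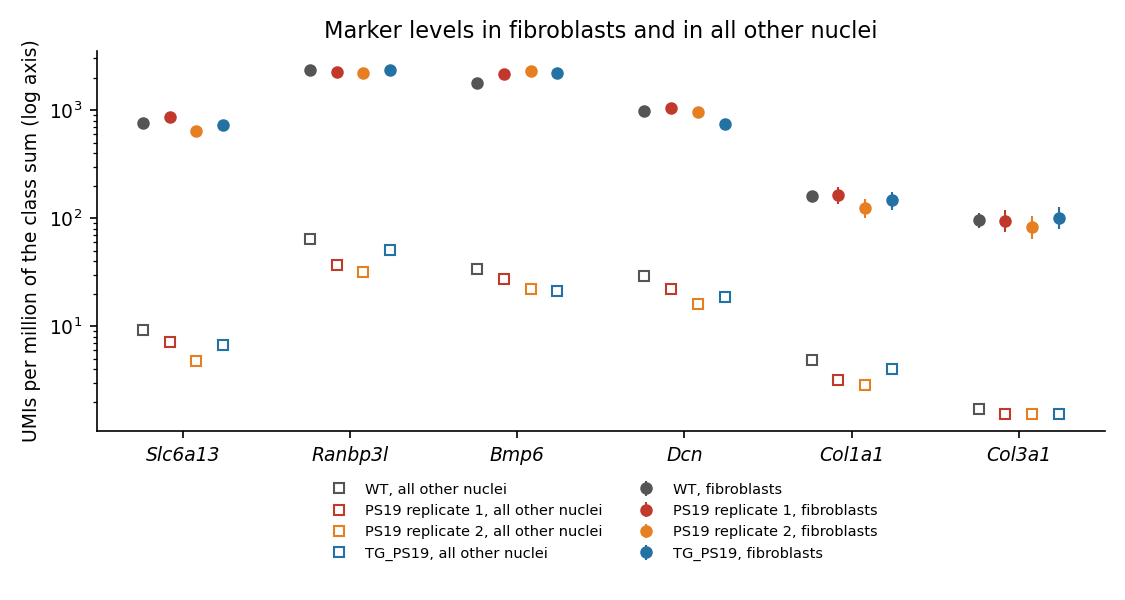
Level of the 6 label markers (CPM, log axis, with exact Poisson 95% intervals that cover counting error only) in fibroblast nuclei (filled points) and in all other kept nuclei (open squares) of each of the 4 libraries. Slc6a13 lay between 645 and 862 CPM in fibroblasts and between 4.81 and 9.22 CPM elsewhere, and the other markers showed a gap of the same kind.

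Genes outside the rule gave the same picture, again without a test because the nuclei were chosen on genes they share. Among genes at 50 CPM or more, Lama1, the laminin chain of the pial basement membrane, had the largest ratio to other nuclei, 56.2-fold after 10 CPM was added to both sides. Its level was 1021, 1438, 1252 and 875 CPM in that order of libraries. Col4a6, a basement-membrane collagen IV chain, was 37.1-fold above other nuclei and Cped1 39.9-fold. Transporters filled much of the list: Slc7a11, the cystine and glutamate exchanger, reached 3998 to 4837 CPM and 34.3-fold, Slc13a4, a sulfate transporter, 28.0-fold, and Slc22a8, an organic anion transporter, 24.8-fold. Aldh1a2, an enzyme that makes retinoic acid, was 32.0-fold above other nuclei.

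Nuclei at the edge of the rule were less clean. Lama1 stood at 56.3 CPM in the 671 nuclei with exactly 2 markers, at 524 CPM in the 223 with exactly 3 and at 1029 CPM in the 312 with exactly 4. Slc1a2, the astrocyte glutamate transporter, ran the other way at 4846, 1773 and 418 CPM, and Htr2c, a serotonin receptor of choroid plexus epithelium, was at 2143, 1009 and 4.22 CPM. RNA of other cell types was thus concentrated in the nuclei that just met the rule.

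That RNA was not spread evenly over the libraries. All 6 astrocyte markers had UMIs in every library, and their sum within fibroblasts was 1616, 551, 676 and 1473 CPM. The microglia markers summed to 324, 187, 143 and 267 CPM, the oligodendrocyte markers to 765, 537, 283 and 790 CPM, and the neuron markers to 121, 55.0, 35.5 and 71.7 CPM. WT and TG_PS19 were therefore the high libraries for these 4 lists and both PS19 libraries were low. OPC (oligodendrocyte precursor) markers had another order, 153, 407, 258 and 295 CPM. Choroid plexus markers were at 374, 466, 618 and 413 CPM, endothelial markers at 174 to 200 CPM and mural markers at 196 to 255 CPM. Macrophage markers were near 0 at 3.93 to 26.6 CPM, and of the T cell markers Cd3g, Trac and Cd8a were at 0 everywhere, the list's 122 to 259 CPM being mostly Themis.

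Fibroblasts made up 5.73% of kept nuclei in WT (exact 95% binomial interval 5.33% to 6.15%), 6.12% (5.45% to 6.85%) and 5.14% (4.54% to 5.79%) in the PS19 replicates, and 3.23% (2.89% to 3.60%) for TG_PS19. The TG_PS19 interval lay below those of the other 3 libraries, which overlapped one another. With every nucleus thinned to 1000 UMIs before the rule, the shares were 5.10%, 5.68%, 4.35% and 3.02%, with 347, 63, 24 and 594 shallower nuclei left out. The shares were not tested between groups, and the yield of meninges with each dissected hippocampus was not measured.

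The marker pairs split the fibroblasts unevenly. Nuclei with Slc6a13 or Bmp6 and neither Col1a1 nor Col3a1, called Slc6a13/Bmp6 nuclei below, numbered 420 in WT, 146 and 139 in PS19 and 182 in TG_PS19. The opposite class, Col1a1/Col3a1 nuclei, numbered 54, 15, 6 and 11, or 7.39%, 5.28%, 2.37% and 3.50% of the fibroblasts. Nuclei with UMIs of both pairs numbered 218, 112, 95 and 115, and 39, 11, 13 and 6 had neither. Of the nuclei with a single pair, 88.6% (85.4% to 91.3%) in WT, 90.7% (85.1% to 94.7%) and 95.9% (91.2% to 98.5%) in the PS19 replicates and 94.3% (90.0% to 97.1%) for TG_PS19 were Slc6a13/Bmp6 nuclei. The WT and TG_PS19 intervals overlapped, and the PS19 pair differed by more than PS19 replicate 1 did from WT.

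**Figure D2:**
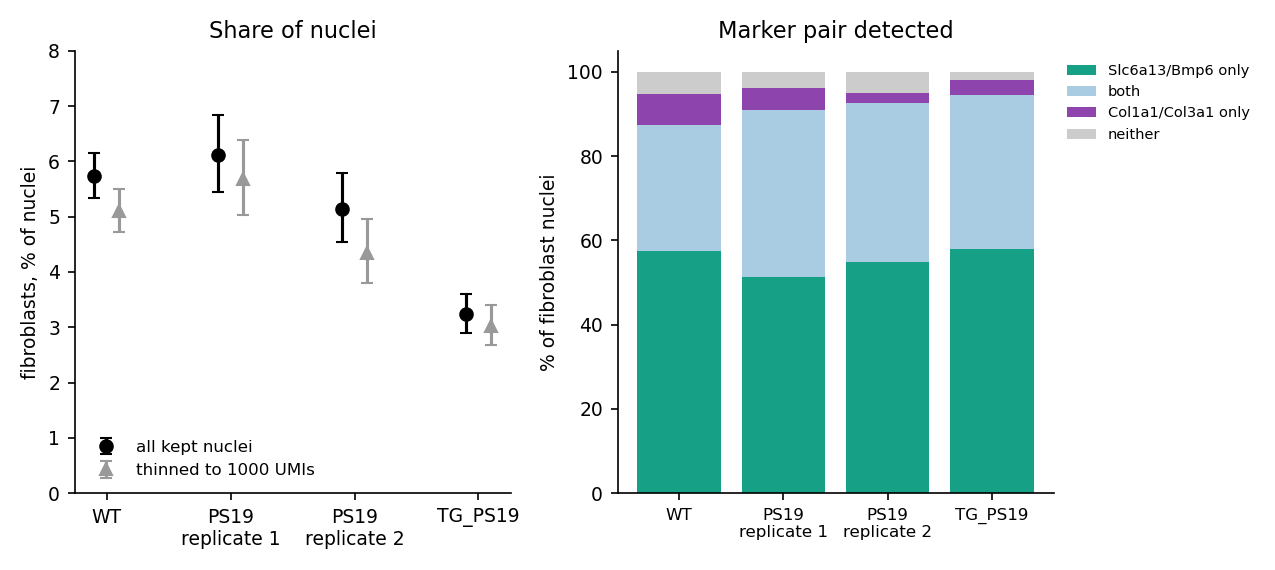
Left, fibroblast share of kept nuclei in percent for each of the 4 libraries, with exact 95% binomial intervals, for all UMIs (circles) and after thinning each nucleus to 1000 UMIs (triangles); TG_PS19, at 3.23%, was lowest in both. Right, fibroblast nuclei of each library in percent by the marker pair detected; Slc6a13/Bmp6 nuclei were the largest class in all 4 libraries, at 51.4% to 58.0%.

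The first genotype comparison was PS19 against WT, both libraries groups of Y-linked nuclei. UMIs were summed over the fibroblasts of each library and tested with edgeR's quasi-likelihood test with Benjamini-Hochberg adjustment at 0.05 over 11415 genes. The WT library, having no replicate, was assumed to vary like the PS19 pair. Among called genes, the fibroblast-rich ones were mostly higher in PS19 and those at a lower level in fibroblasts than elsewhere mostly lower. Of all genes tested 391 (3.43%) were called, 107 higher in PS19 (0.937%) and 284 lower (2.49%). Among the 2248 genes at least 2 times higher in fibroblasts than in other nuclei, 87 were called (3.87%), of which 72 rose (3.2%) and 15 fell (0.667%). Of the 284 that fell, 249 had a lower level in fibroblasts than in the remaining nuclei, the astrocyte gene Slc1a2 among them at 949 normalised CPM in WT, 93.8 and 208 in PS19 and 792 in TG_PS19. The astrocyte marker sums given above moved with these genes, and the part of that RNA in the result was not tested for each gene. Among nuclei without a Slc1a2 UMI no gene passed, 604 having an unadjusted p below 0.05. Of the 344 called genes tested there 329 kept their direction, all 87 of the fibroblast-rich ones among them. These nuclei are part of the same fibroblasts, so kept direction does not set the 87 genes apart. The fit of those nuclei called no gene between TG_PS19 and PS19 either, Xist included, so its lack of calls says nothing about astrocyte RNA.

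**Figure D3:**
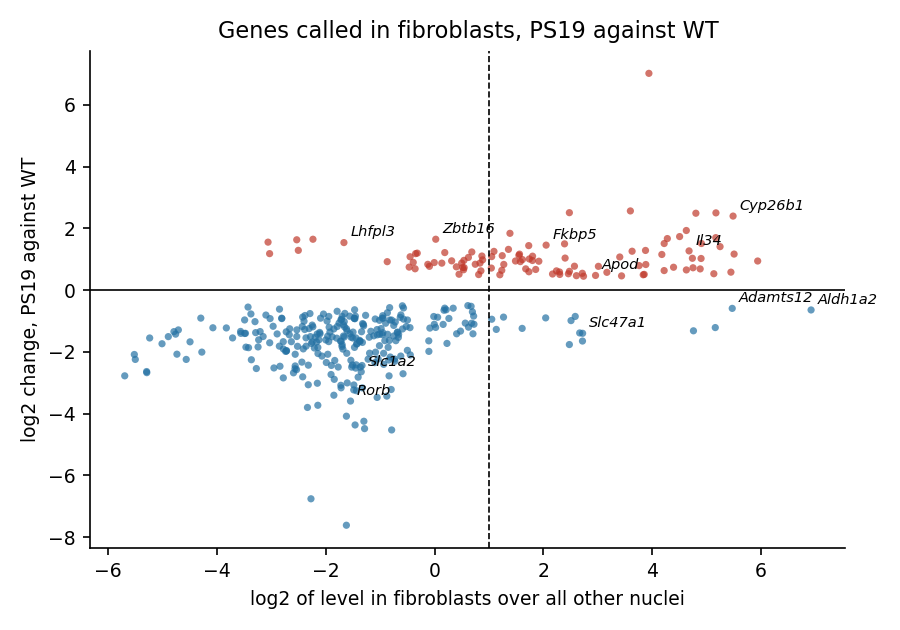
The 391 genes called between PS19 and WT, each a point: log2 ratio of the fibroblast level to that of other nuclei (horizontal) against log2 change in PS19 over WT (vertical), with the dashed line at a ratio of 2. Genes called higher had a median ratio of 3.48 and genes called lower of 0.328, so the risers sit mainly at the right and the fallers at the left.

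Glucocorticoid-responsive genes were among the risers. Of 12 tested members of the list 3 rose and none fell, beside 0.937% and 2.49% of all genes. The median log2 change was 0.68 against 0.01 for all genes. Fkbp5 (chr17:28399094-28517527, minus strand, GRCm38), a chaperone that dampens the glucocorticoid receptor, was at 144 normalised CPM in WT, 425 and 368 in PS19 and 343 in TG_PS19. Its log2 change in PS19 was 1.46 ± 0.18 (SE, adjusted p = 4.93e-14). Zbtb16 (chr9:48654297-48836222, minus strand), a zinc-finger transcription factor, was at 79.0, 253, 243 and 271 normalised CPM, a change of 1.65 ± 0.20 (adjusted p = 8.39e-14). Errfi1, a feedback inhibitor of EGF receptors, was at 175, 259, 279 and 284 normalised CPM and rose by 0.62 ± 0.18 (adjusted p = 0.0149). In all 3 genes WT was the lowest library and the PS19 pair lay close together. Errfi1 missed the threshold when no exclusion marker and no neuronal UMI was allowed (adjusted p = 0.317), whereas Fkbp5 and Zbtb16 passed there (adjusted p = 8.17e-06 and 1.20e-07).

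Fkbp5 and Zbtb16 were not particular to fibroblasts. In vascular nuclei (endothelial and mural, 1510 in all) their log2 changes were 1.51 (adjusted p = 0.00230) and 1.71 (adjusted p = 2.32e-09), and the difference between the classes was −0.05 for each. Ccn2, a matricellular protein known as a target of YAP signalling, was at 74.5 normalised CPM in WT, 216 and 181 in PS19 and 184 in TG_PS19, a change of 1.41 ± 0.21 in fibroblasts (adjusted p = 3.99e-09) beside 1.40 in vascular nuclei (adjusted p = 0.189). For none of the 3 genes did the difference between the classes pass its test.

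Retinoic acid enzymes moved in opposite directions. Cyp26b1 (chr6:84571414-84593908, minus strand), which clears retinoic acid, was at 15.3 normalised CPM in WT, 88.4 and 74.3 in PS19 and 111 in TG_PS19, a change of 2.40 ± 0.33 (adjusted p = 6.71e-11). It came from 15 nuclei in WT, 30 and 19 in PS19 and 32 in TG_PS19, the top nucleus holding 20.8%, 12.1% and 16.9% of the UMIs in the first 3 libraries. Aldh1a2 (chr9:71215789-71296243, plus strand), which makes retinoic acid, was at 546 normalised CPM in WT, 360 and 340 in PS19 and 363 in TG_PS19, a log2 change of −0.64 ± 0.15 (adjusted p = 0.00129). For both genes WT stood apart from the other 3 libraries. Of 15 tested genes of retinoic acid synthesis and handling these were the 1 that rose and the 1 that fell. Of all genes 0.937% rose and 2.49% fell.

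The promoters of this pair are shown because the enzymes act on the same molecule in opposite ways and their RNAs changed in opposite directions. Each runs from 250 bases before to 50 bases after the annotated start of the gene in RefSeq's GRCm38.p6 annotation, at chr6:84593761-84594060 on the minus strand for Cyp26b1 and chr9:71215539-71215838 on the plus strand for Aldh1a2. Capitals mark the letters TATAAA, the consensus of the TATA box.
Cyp26b1: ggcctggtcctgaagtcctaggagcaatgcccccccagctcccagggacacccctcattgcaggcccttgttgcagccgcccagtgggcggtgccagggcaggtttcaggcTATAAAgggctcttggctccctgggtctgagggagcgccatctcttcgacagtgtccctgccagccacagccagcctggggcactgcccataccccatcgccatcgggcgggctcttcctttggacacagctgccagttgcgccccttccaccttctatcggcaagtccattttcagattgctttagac
Aldh1a2: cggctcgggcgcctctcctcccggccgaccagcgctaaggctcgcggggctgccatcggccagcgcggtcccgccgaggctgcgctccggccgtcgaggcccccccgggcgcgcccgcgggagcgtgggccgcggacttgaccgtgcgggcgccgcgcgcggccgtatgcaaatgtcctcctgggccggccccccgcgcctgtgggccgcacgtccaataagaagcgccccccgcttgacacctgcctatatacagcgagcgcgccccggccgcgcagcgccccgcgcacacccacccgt
On both strands, TATAAA occurred once in the Cyp26b1 window and not in that of Aldh1a2, and 13.6% of 32851 RefSeq promoters of the same length held it. The letters AGGTCA and AGTTCA, found in retinoic acid receptor sites, occurred in neither window, against 16.3% and 14.0% of all promoters. These are matches of letters only. For Cyp26b1 the start used differs from that of the gene position given above, which comes from GENCODE and lies inside the window. The TATAAA lies before both starts, and its distance from them was not examined.

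Immune signals rose in 4 of 19 tested members of the complement and cytokine list and fell in none, beside 0.937% and 2.49% of all genes. Il34 (chr8:110741829-110805924, minus strand), a ligand of the CSF1 receptor on microglia and macrophages, was at 273 normalised CPM in WT, 664 and 652 in PS19 and 547 in TG_PS19. It rose by 1.27 ± 0.16 (adjusted p = 2.48e-13). Osmr, a receptor subunit for oncostatin M, was at 32.5, 71.0, 62.9 and 52.0 normalised CPM and rose by 1.04. C4b, a complement component, was at 62.4, 122, 102 and 85.8 and rose by 0.84. WT was lowest for these 3 genes, and TG_PS19 lay between WT and PS19. None of the 20 tested interferon and MHC class I genes was called, beside 3.43% of all genes.

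Of 36 tested matrix glycoproteins 1 rose and 1 fell, and of 25 matrix-processing genes 1 rose and 2 fell. None of 22 collagen chains and none of 25 fibroblast transcription factors was called, counts too small to set apart from the 3.43% of all genes. Timp3, an inhibitor of metalloproteinases, was at 480 normalised CPM in WT, 834 and 811 in PS19 and 599 in TG_PS19 and rose by 0.78 ± 0.15 (adjusted p = 1.16e-05). Svep1, a large adhesion protein of the matrix, was at 120, 233, 259 and 194 and rose by 1.03 ± 0.19 (adjusted p = 5.27e-06). Fn1, fibronectin, was at 91.1 in WT, 26.8 and 64.2 in PS19 and 92.8 in TG_PS19 and was called lower by 0.99 on the log2 scale. The Fn1 change rested on PS19 replicate 1, being −1.76 without replicate 2 and −0.50 without replicate 1.

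Adamts12, a secreted metalloproteinase, was called lower at 666 normalised CPM in WT, 415 and 470 in PS19 and 720 in TG_PS19, a log2 change of −0.59 ± 0.14 (adjusted p = 0.00237). Slc47a1, an exporter of organic cations, was at 87.3, 26.8, 39.0 and 57.7 normalised CPM, a log2 change of −1.40 ± 0.28 (adjusted p = 5.63e-05). In WT it came from 29 nuclei and in each other library from 8 to 10. Igfbp6, which binds IGF2, and Sfrp4, a secreted Wnt inhibitor, were called at −1.65 and −1.76, both at no more than 37.0 normalised CPM, and Igfbp6 was at −1.08 without PS19 replicate 2. With no exclusion marker and no neuronal UMI allowed, Osmr, Fn1, Igfbp6 and Sfrp4 missed the threshold (adjusted p = 0.103, 0.696, 0.906 and 0.662), and the other genes named since Cyp26b1 passed it. Slc47a1 and Sfrp4 were also higher in Col1a1/Col3a1 nuclei, which were 7.39% of fibroblasts in WT and 5.28% and 2.37% in PS19. The part of that share in these changes was not tested.

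The number of calls depended on how the spread was estimated. DESeq2 called 32 of the 391 genes (0.28% of those tested), and the risers among them were Cyp26b1, Zbtb16, Fkbp5, Il34 and Plcl1. In sums thinned to the lowest library total no gene passed, 833 having an unadjusted p below 0.05. All 391 kept their direction, but the thinned sums are drawn from the same counts, so this adds little. The fit of thinned sums did not call Xist or SORL1 between TG_PS19 and PS19 either (adjusted p = 0.592 for both). Prior degrees of freedom weigh the trend of spread over genes against a gene's own spread. Their median was infinite in the main fit, 1.997 in thinned sums and 1.472 in nuclei without Slc1a2. The 391 calls were thus made with each gene's spread taken from the trend. The part of this change in the loss of calls was not tested.

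**Figure D4:**
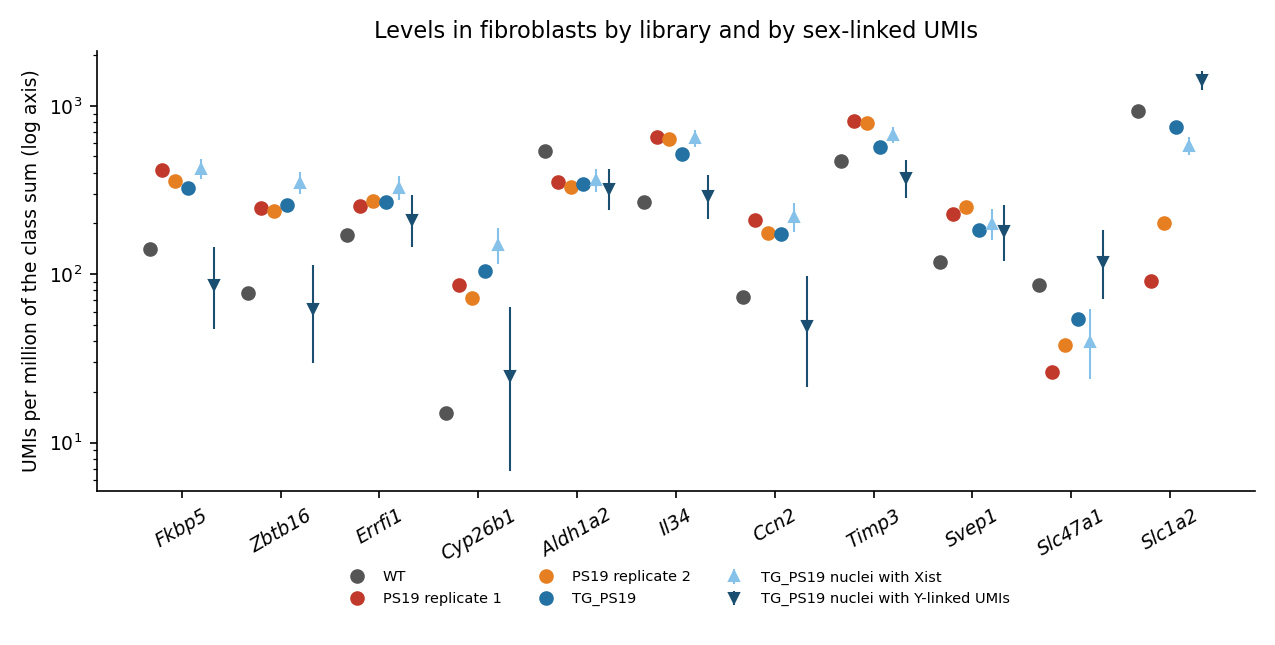
Level in fibroblasts (CPM, log axis) of selected genes in each of the 4 libraries (points) and, for TG_PS19, in nuclei with Xist (upward triangles) and with Y-linked UMIs (downward triangles), both with exact Poisson 95% intervals for counting error. Fkbp5, Zbtb16, Cyp26b1 and Ccn2 were low in WT and in the Y-linked nuclei of TG_PS19, and high in PS19 and in the Xist nuclei of TG_PS19.

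Within the TG_PS19 library the Xist nuclei and the Y-linked nuclei differed in the same genes. The 200 Xist nuclei held 479369 UMIs and the 60 Y-linked nuclei 161444, with medians of 2186 and 2297 UMIs. Fkbp5 was at 423 CPM in Xist nuclei and 86.7 CPM in Y-linked nuclei, Zbtb16 at 348 and 61.9 CPM, and Cyp26b1 at 148 and 24.8 CPM. Ccn2 was at 219 and 49.6 CPM, and Il34 at 640 and 291 CPM. The Xist nuclei resembled the PS19 libraries in these 5 genes and the Y-linked nuclei lay nearer WT. Slc47a1 ran the other way, at 39.6 CPM in Xist nuclei and 118 CPM in Y-linked nuclei, as did Slc4a10, a bicarbonate transporter, at 77.2 and 638 CPM.

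This held beyond the named genes. Of the 72 fibroblast-rich genes that rose in PS19 over WT, 70 had a UMI in these nuclei and 61 of them (87.1%) were higher in Xist nuclei, beside 57.6% of all fibroblast-rich genes tested. Vascular nuclei of TG_PS19 showed the same order, with Zbtb16 at 509 and 126 CPM and Fkbp5 at 109 and 21.1 CPM in Xist and Y-linked nuclei. Astrocyte RNA also differed, Slc1a2 being at 578 CPM in Xist and 1418 CPM in Y-linked fibroblasts. These nuclei came from 1 pool, so no test was made, and sex, animal and any difference between the animals cannot be told apart.

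The transgenes came next. SORL1, the human symbol under which the SORLA transgene was counted, had 184 UMIs in TG_PS19 fibroblasts, or 244 CPM (exact Poisson 95% interval 210 to 282 CPM). It had 0 UMIs in WT (3 counts would be 1.88 CPM) and 3 and 0 UMIs in PS19. TG_PS19 Slc6a13/Bmp6 nuclei were at 265 CPM and Col1a1/Col3a1 nuclei at 209 CPM, with overlapping intervals of 217 to 320 and 76.6 to 454 CPM. Xist nuclei of the library were at 317 CPM and Y-linked nuclei at 124 CPM. The mouse gene Sorl1 was at 13.1 to 27.6 CPM in all 4 libraries. MAPT, the human tau transgene, had 6 and 2 UMIs in PS19 fibroblasts and 3 in TG_PS19, so that its level in these nuclei, unlike that of SORL1, was at the limit of detection.

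The second comparison, TG_PS19 against PS19, asked what the SORLA transgene adds on the tau background. Of 11415 genes 311 (2.72%) were called, 249 higher in TG_PS19 (2.18%) and 62 lower (0.543%). Of the 249, 183 had a lower level in fibroblasts than in other nuclei, and the astrocyte and oligodendrocyte marker sums were higher in TG_PS19 too, as given above. Among fibroblast-rich genes 70 were called (3.11%), 35 higher and 35 lower (1.56% each). Xist and Tsix were higher and the Y-linked genes Eif2s3y, Uty and Kdm5d lower, at log2 changes of −2.63, −1.96 and −1.82.

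Fibroblast transcription factors were called lower in 3 of 25 tested members and higher in none, beside 0.543% and 2.18% of all genes. The median log2 change of the list was −0.05, against −0.01 for all genes, so the list as a whole did not shift. Ebf1, a regulator of mesenchymal and B cell lineages, was at 652 and 627 normalised CPM in PS19 and 384 in TG_PS19, with 562 in WT, a log2 change of −0.74 ± 0.16 (adjusted p = 0.000440). Ebf2, its relative, was at 162 and 152 against 74.5, with 128 in WT, and fell by 1.07 (adjusted p = 0.00169). Nr2f2, the orphan nuclear receptor COUP-TFII, was at 542 and 494 against 323, with 463 in WT, and fell by 0.68 (adjusted p = 0.00335). TG_PS19 was the lowest library for all 3. The same was true of Lama1, at 1471 and 1288 in PS19, 927 in TG_PS19 and 1039 in WT (−0.57 ± 0.14, adjusted p = 0.00274), and of Col8a1, a short-chain collagen, at 154 and 220 against 101, with 138 in WT (−0.89 ± 0.23, adjusted p = 0.00697).

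Signalling and clock genes moved as well. Apcdd1, a Wnt inhibitor, was at 382 and 350 normalised CPM in PS19, 204 in TG_PS19 and 349 in WT, a fall of 0.84 on the log2 scale. Igfbp5, an IGF-binding protein, was at 138 and 81.8 in PS19, 49.2 in TG_PS19 and 142 in WT, and fell by 1.15, or by 0.73 with PS19 replicate 2 alone. Of 17 tested clock genes 3 fell (Per3 by 0.95, Dbp by 1.25 and Bhlhe40 by 1.41) and 2 rose (Arntl by 2.82 and Npas2 by 1.87). Of all genes 0.543% fell and 2.18% rose. Per3, a period gene, was at 413 and 427 in PS19, 217 in TG_PS19 and 264 in WT. Arntl, the core activator of the clock, was at 6.70 and 5.04 in PS19, 42.2 in TG_PS19 and 15.9 in WT. With only the Y-linked nuclei of TG_PS19, Arntl was at 3.93, Npas2 at 2.54, Per3 at −1.84 and Dbp at −3.03. With only the Xist nuclei they were at 1.74, 0.99, −0.67 and −1.08, and Arntl, Npas2 and Bhlhe40 missed the threshold. The hour at which each tissue was taken is not given in the sources used here.

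Among the risers was Adamts12, with the levels given above, which rose by 0.70 ± 0.15 (adjusted p = 0.000290). Themis, best known from T cells, was at 145 and 122 in PS19, 267 in TG_PS19 and 145 in WT, and rose by 1.00 ± 0.20 (adjusted p = 6.03e-05) with Cd3g, Trac and Cd8a at 0. With the Y-linked nuclei of TG_PS19 alone Themis was at 0.23 (adjusted p = 0.846), and with the Xist nuclei alone at 1.22. With no exclusion marker and no neuronal UMI allowed, Ebf2 (adjusted p = 0.00274), Col8a1 (0.000443) and Adamts12 (0.0115) passed the test, as did Per3 (0.0439), and Ebf1, Nr2f2, Lama1, Apcdd1, Igfbp5, Themis, Arntl, Npas2, Dbp and Bhlhe40 did not. Col8a1 and Lama1 also missed the threshold without nuclei of high doublet score (adjusted p = 0.0930 and 0.0504). Adamts12 was at 0.15 with the Xist nuclei of TG_PS19 alone. DESeq2 called 27 genes (0.237%), and of the genes named in this comparison only Eif2s3y, Uty, Xist and Tsix.

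The third comparison set TG_PS19 against WT, both lone libraries. Here 139 genes (1.22%) were called, 98 higher (0.859%) and 41 lower (0.359%). Of the fibroblast-rich genes 66 were called (2.94%), 50 higher (2.22%) and 16 lower (0.712%). DESeq2 called 4 genes (0.035%), Rbfox1, Tsix, Xist and Uty. Several PS19 risers passed edgeR again, against the same WT library: Cyp26b1 by 2.85, Zbtb16 by 1.78, Ccn2 by 1.30, Fkbp5 by 1.25 and Il34 by 1.00. Rbp4, a retinol carrier, was seen in 27 nuclei of WT, 18 and 21 of PS19 and 33 of TG_PS19, a rise of 1.52 over WT (adjusted p = 0.0156). With only the 60 Y-linked nuclei of TG_PS19 in the fit, Fkbp5 was at −0.66, Zbtb16 at −0.28, Ccn2 at −0.52 and Rbp4 at −0.69, the opposite sign. Cyp26b1 (0.76) and Il34 (0.16) stayed above 0 without passing the test. In those nuclei Fkbp5 had 14 UMIs, Zbtb16 10, Ccn2 8, Cyp26b1 4 and Rbp4 2, so these signs lie within counting error. The rise of Fkbp5, Zbtb16 and Ccn2 over WT was thus not seen in the Y-linked nuclei. For Cyp26b1 and Rbp4 the counts were too few to judge.

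The last comparison was made within libraries, between Slc6a13/Bmp6 nuclei and Col1a1/Col3a1 nuclei, with the library as a block and 8 sums. The smaller class held 15366 to 132590 UMIs per library against 382983 to 885958. Its lowest sum was that of 6 nuclei in PS19 replicate 2, where 3 counts would be 195 CPM before normalisation. Values of this class in that library therefore rest on few counts. Of 6798 genes tested 274 (4.03%) were called, 150 higher in Slc6a13/Bmp6 nuclei (2.21%) and 124 higher in Col1a1/Col3a1 nuclei (1.82%). Slc6a13, Bmp6, Col1a1 and Col3a1 defined the classes and are not counted. The values that follow are normalised CPM in WT, PS19 replicates 1 and 2 and TG_PS19.

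Called solute carriers and Wnt genes were mostly higher in Slc6a13/Bmp6 nuclei. Of 27 tested transporters 10 were higher there and 3 in Col1a1/Col3a1 nuclei, and of 18 Wnt and R-spondin genes 5 and 1. For all genes these shares were 2.21% and 1.82%, to be set beside each list below as well. The median log2 difference was −0.08 for the transporters and 0.74 for the Wnt genes, against 0.14 for all genes. The transporters as a whole thus did not lean to Slc6a13/Bmp6 nuclei. Of 13 arachnoid barrier and dural border genes 2 (Tjp1 and Aldh1a2) were higher in Slc6a13/Bmp6 nuclei and 3 (Slc47a1, Cdh11 and Klf5) in Col1a1/Col3a1 nuclei. Lef1, a transcription factor of the Wnt pathway, was at 205, 132, 226 and 191 in Slc6a13/Bmp6 nuclei and at 18.1, 54.1, 0 and 0 in the others, a log2 difference of 3.15 ± 0.64 (adjusted p = 8.52e-05). Tjp1, the tight junction scaffold ZO-1, was at 865, 981, 1013 and 962 against 490, 135, 99.2 and 429, a difference of 1.65 ± 0.33. Ptgds, the prostaglandin D synthase that meninges release into cerebrospinal fluid, differed by 1.60 ± 0.23 (adjusted p = 5.71e-10). Epha3, an ephrin receptor, was at 297, 406, 407 and 425 against 27.2, 0, 0 and 39.0, a difference of 4.08 ± 0.57. Each of these 4 genes was higher in Slc6a13/Bmp6 nuclei in all 4 libraries.

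Of 11 tested retinoic acid genes 2 were higher in Slc6a13/Bmp6 nuclei, Aldh1a2 and Aldh1a1, and 1 in the others, the retinal reductase gene Dhrs3 (−1.75). Aldh1a2 was at 703, 456, 366 and 450 against 181, 108, 149 and 234, a difference of 1.66 ± 0.38 (adjusted p = 0.000762). Aldh1a1, a related enzyme, was at 325, 355, 371 and 369 against 172, 27.0, 149 and 117, a difference called at an adjusted p of 0.00745. Of 25 growth factor genes 1 was higher in Slc6a13/Bmp6 nuclei, the IGF-binding protein Igfbp2 (1.88), and 3 were higher in the others, Igfbp7, Nrp1 and Egfr. Il34 was at 336, 789, 740 and 684 against 54.4, 270, 198 and 117, a difference of 2.10 ± 0.38. WT was the lowest library in both classes. In Col1a1/Col3a1 nuclei of TG_PS19, however, 3 counts would be 104 CPM before normalisation, so the order of WT and TG_PS19 there rests on few counts. Lama1 was higher by 1.04 ± 0.28. Rspo2, an R-spondin that strengthens Wnt signals, had 107 UMIs against 0 and was at least 3.66-fold higher, with 3 counts over the group as the floor.

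Another set marked the Col1a1/Col3a1 side. Chrm3, a muscarinic acetylcholine receptor, was at 55.9, 9.43, 30.3 and 53.1 in Slc6a13/Bmp6 nuclei and at 1052, 514, 1637 and 819 in the others, a log2 difference of −4.71 ± 0.35 (adjusted p = 2.85e-37). Bmper, which binds bone morphogenetic proteins, was at 8.19, 6.29, 2.75 and 3.12 against 290, 108, 149 and 273, a difference of −5.14 ± 0.58. Slc47a1 was at 6.82, 31.4, 38.5 and 3.12 against 372, 108, 149 and 273 (−3.86 ± 0.51), and Slc4a10 at 84.6, 214, 234 and 90.6 against 1424, 324, 595 and 1638 (−2.74 ± 0.33). Each of these 4 genes was higher in Col1a1/Col3a1 nuclei in every library. Emcn, an endothelial sialomucin, was lower in Slc6a13/Bmp6 nuclei by 4.49.

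Matrix glycoproteins went both ways, with 2 of 32 (Fmod at 2.77 and Lama1) higher in Slc6a13/Bmp6 nuclei and 3 (Mgp, Eln and Matn2) in the others. Mgp, matrix Gla protein, was at 46.4, 78.6, 99.1 and 53.1 against 426, 622, 198 and 546 (−2.80 ± 0.36). Cdh11, a mesenchymal cadherin, was at 66.8, 72.3, 68.8 and 96.8 against 798, 433, 298 and 624 (−2.88 ± 0.35), and Nrp1, a semaphorin and VEGF co-receptor, differed by −2.24 ± 0.38. Ebf2, called lower in TG_PS19 above, was at 110, 179, 146 and 65.6 against 317, 487, 248 and 273 (−1.45 ± 0.36). TG_PS19 was lowest for Ebf2 in the Slc6a13/Bmp6 class only. Collagen chains other than the class genes were split, with Col25a1 higher on one side and Col14a1 on the other out of 21 tested.

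**Figure D5:**
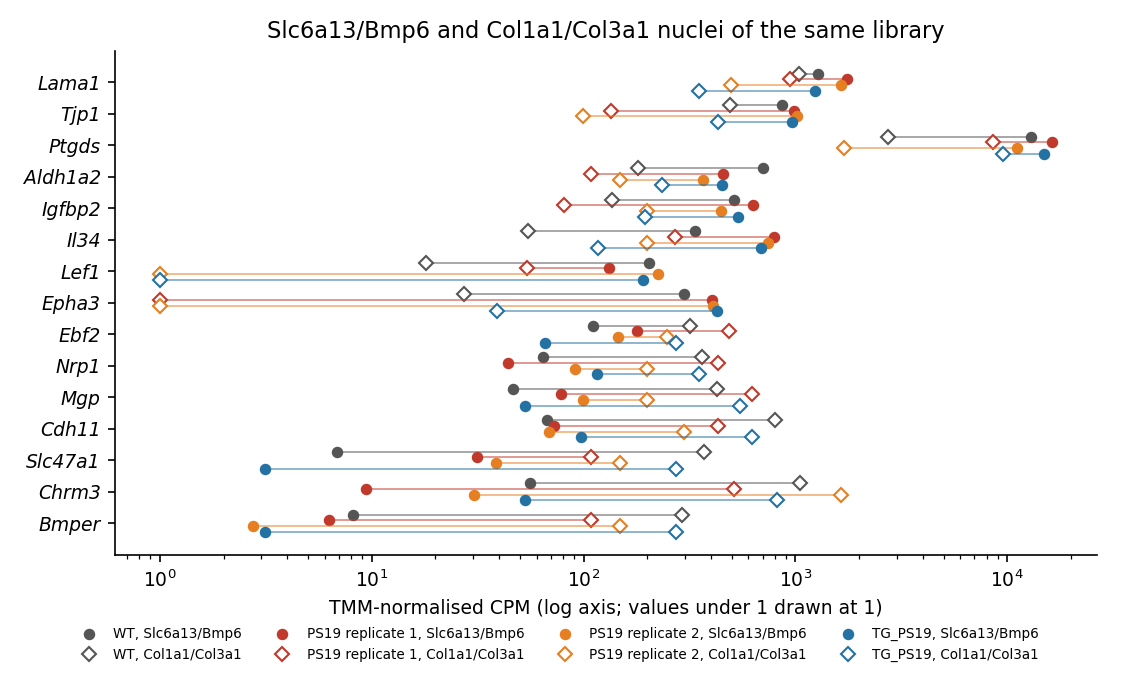
Normalised CPM (log axis, values under 1 drawn at 1) of 15 genes in Slc6a13/Bmp6 nuclei (filled circles) and Col1a1/Col3a1 nuclei (open diamonds) of each of the 4 libraries. Lama1, Tjp1, Ptgds, Lef1 and Epha3 lie higher in the filled circles of every library, and Chrm3, Bmper, Slc47a1, Mgp and Cdh11 in the open diamonds.

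The collagen side was itself uneven. Slc47a1, Alpl, Bmper and Emcn, a set chosen after its values were seen, had at least 1 UMI in 34 of 86 Col1a1/Col3a1 nuclei (39.5%, exact interval 29.2% to 50.7%) and in 32 of 887 Slc6a13/Bmp6 nuclei (3.61%, 2.48% to 5.05%). They were seen in 21 of 69 nuclei with neither pair (30.4%) and in 31 of 540 with both (5.74%). At least 3 of the 6 choroid plexus markers were present in 8 of 887 Slc6a13/Bmp6 nuclei (0.902%) and in 0 of 86 Col1a1/Col3a1 nuclei. With 3 nuclei as the limit a count of 0 allows, the latter share could be up to 3.49%, so no difference in this share was detectable. By level, however, 3 of 4 tested choroid plexus markers were called higher in Slc6a13/Bmp6 nuclei and 0 lower, beside 4.03% of all genes called. Their median log2 difference was 4.26, against 0.14 for all genes. Without nuclei that held Htr2c, Otx2, Folr1 or Clic6, 311 genes were called, Ttr reversed and Htr2c and Otx2os1 left the test.

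The size of this list depended on depth. DESeq2 called 133 genes (1.96%), 130 of them shared with edgeR. When every nucleus was thinned to 1000 UMIs before the split, 45 genes passed, Chrm3, Slc47a1, Slc4a10, Cdh11, Tjp1, Ptgds, Aldh1a2, Apcdd1 and Nrp1 among them. Without the WT library 129 passed, and Lef1, Aldh1a2 and Ebf2 did not (adjusted p = 0.0694, 0.116 and 0.0854). Lama1 missed the threshold without any 1 of the other 3 libraries.

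Whether a change differed between fibroblasts and vascular nuclei was tested with an interaction term over both classes, the library as a block. Between PS19 and WT 131 of 12553 genes (1.04%) differed, 20 with a more positive change in fibroblasts (0.159%) and 111 with a more negative one (0.884%). Of the 87 fibroblast-rich genes called in that comparison 5 did so. Apod, a lipid-carrying apolipoprotein, rose by 0.48 in fibroblasts and was at −0.55 in vascular nuclei, a difference of 1.04 (adjusted p = 5.52e-05). Between TG_PS19 and PS19 126 genes (1%) differed, 112 with a more positive change in fibroblasts (0.892%) and 14 with a more negative one (0.112%), among them 4 of the 70 called fibroblast-rich genes. Ebf1 was at −0.74 in fibroblasts and 0.34 in vascular nuclei, a difference of −1.10 ± 0.18 (adjusted p = 2.26e-07).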

How the data were processed

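The authors deposited a matrix of UMI counts per gene and barcode for each of the 4 libraries, made with Cell Ranger 7.1.0 on GRCm38 per the submitters' processing notes; further filters before deposit are not given in the sources used here. The matrices list 55403 features, 55401 of mouse and the human MAPT and SORL1, and 54349 identifiers were matched to GENCODE M21 for positions. No barcode was removed as a doublet in the main analysis, and Scrublet (scanpy 1.11.5) was used for an alternative.

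Raw counts were summed over the fibroblasts of each library and tested with edgeR 4.0.16 (quasi-likelihood, TMM scaling, filterByExpr, Benjamini-Hochberg 0.05) in R 4.3.3. Genotypes were fitted over 4 sums where only the PS19 replicates gave a residual degree of freedom (1). Nucleus classes were fitted over 8 sums with the library as a block and 3 residual degrees of freedom. In both main fits the prior degrees of freedom were infinite, so each gene took its spread from the trend over genes. Normalised CPM are TMM-scaled. Genes that define a class stayed out of its counts of calls. DESeq2 1.42.0, limma 3.58.1 (with edgeR), Python 3.11.15, numpy 2.4.6 and scipy 1.17.1 were used beside it. Poisson and binomial 95% intervals are exact and cover counting error only. The fits were tested on simulated data. Genes changed by a log2 of 1 and 2 were recovered in 81% and 100% for PS19 against WT (11431 genes). For TG_PS19 against PS19 these shares were 70% and 99%, and for the nucleus classes (6812 genes) 10.3% and 72.6%. False calls made up 2.69%, 7.14% and 2.47% of calls in these 3 comparisons. Every simulated library was drawn with the spread of the fit itself, so the assumption on the lone libraries was not tested.

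Named genes were the 10 largest called changes in each direction at 20 normalised CPM or more and up to 5 called members of each of 33 gene lists, with the label markers, the transgenes, their mouse genes and Xist always included; the text describes a selection of these. The members, the lists and the rule were chosen with earlier results of these data known. Alternatives covered scaling, low-count filters, DESeq2, the prior, the marker rule, doublet scores, depth, other cells' RNA, sex-linked UMIs and left-out libraries. Some results are not reported here.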

Additional observations from a re-analysis of the deposited data

Results flagged for a closer look

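Some changes differed between fibroblasts and vascular nuclei by the interaction term of edgeR's quasi-likelihood test. Between PS19 and WT this held for 131 genes, and between TG_PS19 and PS19 for 126. Among fibroblast-rich genes called between PS19 and WT, the change in fibroblasts exceeded that in vascular nuclei by 1.22 (log2) for Glul, glutamine synthetase, by 0.79 for Cp, the copper oxidase ceruloplasmin, by 1.84 for Vac14 and by 1.04 for Apod. For Thsd4 the difference was −1.71, from −1.24 in fibroblasts and 0.48 in vascular nuclei. Between TG_PS19 and PS19 the difference was 3.54 for Thsd4 (1.25 in fibroblasts, −2.30 in vascular nuclei) and −1.10 for Ebf1 (−0.74 and 0.34). For Ebf2 it was −2.97, from −1.07 in fibroblasts and 1.88 in vascular nuclei, where it was not called (adjusted p = 0.739). Otx2os1 fell in both classes, with −1.49 in fibroblasts and −6.77 in vascular nuclei, a difference of 5.29. It rested on few nuclei: 10 Slc6a13/Bmp6 nuclei held 162 UMIs of it, and in TG_PS19 1 of these held 16.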

How the results depend on the processing

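Calls between PS19 and WT numbered 391 and became 32 with DESeq2, 166 with no exclusion marker and no neuronal UMI, 87 among fibroblast-rich genes and 0 in nuclei without Slc1a2 or in thinned sums, with or without adjusted residual degrees of freedom. TG_PS19 against PS19 gave 311, and in the same order 27, 116, 70, 0 and 0, or 1 with adjusted degrees of freedom, and 181 without high doublet scores. TG_PS19 against WT gave 139, and 4, 64, 66, 0 and 0, or 1, and 259 with Xist nuclei of TG_PS19 only. The other settings gave counts within 1.5 times of these. Leaving out a PS19 replicate gave fold changes with no residual degree of freedom and so no test. The lone libraries were assumed to vary like the PS19 pair.

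Nucleus classes gave 274 calls, 133 with DESeq2, 55 with at least 2 UMIs of the own pair, 45 after thinning nuclei, 124 after thinning sums and 129 to 285 with 1 library left out. Without the replicate block, which here is the library, they gave 219, and the differences from vascular nuclei gave 53 and 55 in place of 131 and 126. Those differences also gave 50 and 53 with RLE scaling, 60 and 60 with endothelial nuclei alone, and 55 and 62 without high doublet scores, and PS19 against WT gave 29 with mural nuclei alone.

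Fibroblast shares (WT, PS19 replicates 1 and 2, TG_PS19) were 8.42%, 7.63%, 6.62% and 5.12% with at least 2 markers, 3.15%, 3.62%, 3.27% and 1.98% with no exclusion marker and no neuronal UMI, and 7.35%, 7.56%, 6.46% and 4.11% of non-neuronal nuclei. With at least 4 markers WT was at 4.75% and TG_PS19 at 2.79%, and thinning gave 5.10% in WT and 4.35% in PS19 replicate 2. Slc6a13/Bmp6 shares were 95.5%, 95.7%, 99.2% and 99.4% with at least 2 UMIs of the own pair, and 92.6% in WT with at least 4 markers.

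Directions reversed for few named genes, and apart from Uty and Kdm5d the cause was not tested. Without Slc1a2 nuclei, Lhfpl3 and Tnr were at −0.36 and −0.16 between PS19 and WT, and Lhfpl3 at −0.076 between TG_PS19 and WT, where they were at −0.33 and −0.41 without high doublet scores. With Y-linked nuclei of TG_PS19 only, Uty, Kdm5d, St18 and Mbp were at 0.028, 0.28, −1.25 and −0.61 against PS19. Against WT, Gm22146, Zbtb16, Slc4a10, Rbp4, Ccn2, Osr1, Fkbp5 and Kdm5d were at −0.11, −0.28, 0.83, −0.69, −0.52, −0.15, −0.66 and 0.25. Uty and Kdm5d are among the Y-linked genes by which these nuclei were chosen, so their reversal was set by that choice. Between nucleus classes Il31ra was at −0.42 after thinning nuclei, Egfr at 0.17 with at least 2 UMIs of the own pair, and Ttr at −0.17 with at least 4 markers and −0.79 without choroid-marker nuclei.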

Other observations

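Lipid carriers and cholesterol genes of the fibroblasts changed in 4 of 18 tested members between PS19 and WT, 3 lower and 1 higher, with a median log2 change of −0.44. Of all genes tested 3.43% were called. Clu, clusterin, was at 291 normalised CPM in WT, 88.4 and 112 in PS19 and 148 in TG_PS19, a change of −1.53 ± 0.19 (edgeR adjusted p = 1.52e-13). Apoe, apolipoprotein E, was at 2219, 1756, 1381 and 2151, a change of −0.50, or −0.34 with PS19 replicate 1 alone. The desaturase gene Scd2 was at 366, 174, 174 and 276, and fell by 1.07. Clu and Scd2 had lower levels in fibroblasts than in other nuclei (ratios of 0.630 and 0.536), and the astrocyte marker sums moved with all 3 genes, whose part was not tested. Apod ran the other way, at 1850, 2635, 2514 and 2042, and its rise missed the threshold with no exclusion marker and no neuronal UMI allowed (adjusted p = 0.0889). None of 9 tested prostaglandin synthesis genes and none of 10 immediate early and stress genes was called. These counts are too small to set apart from the 3.43% of all genes.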
